A study of Mus musculus with 8 samples.

Results

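Cytotoxic T cells and natural killer (NK) cells destroy other cells with a shared set of proteins, and 10 genes of that set were examined: Nkg7, Prf1, Gzma, Gzmb, Gzmk, Klrd1, Klrk1, Ncr1, Eomes and Tbx21. They were chosen by symbol. Each had 1 row in the deposited expression table, which gave 10 of the table's 34586 gene symbols, and no estimate for them had failed. The table holds RNA sequencing values for 8 tumors explanted from the cecum of C57BL/6 mice, which model gastrointestinal stromal tumor (GIST), a tumor of the gut wall driven by the receptor Kit. All 8 tumors shared 3 alleles. They carried 1 activated copy of the receptor gene Kit (Kit V558Delta/+), loxP sites in both copies of the transcription factor gene Etv1 (Etv1 flox/flox), and, at the Rosa26 locus, a Cre recombinase that tamoxifen switches on (Rosa26 CreERT2/CreERT2). The groups, 4 vehicle tumors and 4 tamoxifen tumors, therefore differed by treatment and not by germline genotype. Because the Rosa26 locus is active in most cell types, Cre is not limited to tumor cells, and the immune cells in a tumor carry the same alleles. The labels give no age, tamoxifen dose or time of explantation.

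A killer cell stores perforin and granzymes in lytic granules. When its receptors recognise a target, the granules fuse with the membrane at the contact site, perforin opens the target's membrane, and granzymes enter and cut proteins that start cell death. Klrk1 (NKG2D) and Ncr1 (NKp46) are activating receptors, Klrd1 (CD94) forms receptors with the NKG2 chains, and the T-box factors Eomes and Tbx21 (T-bet) direct the program in NK cells and CD8 T cells.

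Values are FPKM, the fragments mapped to a gene scaled by transcript length and library size, so levels can be compared between genes. They come from whole tumors, in which fewer lymphocytes and less RNA per lymphocyte cannot be told apart. Read depth is unknown. The libraries had 14176 to 14841 symbols at 1 FPKM or more. The labels do not say whether each tumor is from its own mouse, and the p-values reflect the spread among these 8 samples, which may be technical. Etv1 itself measured 34.6, 51.1, 40.4 and 38.6 FPKM in vehicle replicates 1 to 4 and 34.9, 19.7, 31.4 and 17.4 in tamoxifen replicates 1 to 4 (limma adjusted p = 0.13). Tamoxifen replicate 1 thus lay just within the vehicle range for the floxed gene, and the next tamoxifen tumor, at 31.4 FPKM, was close below that range. Results that turn on tamoxifen replicate 1 are given with and without it. The labels do not say which exons are floxed, so the value for the whole gene may include exons that remain.

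The 250 bases before the start of each gene were read for the letters of transcription factor motifs, and 6 of these sequences are shown because they carry the motif found in the most of these genes. RUNX factors, among them Runx3 of CD8 T cells and NK cells, bind the letters TGTGGT. Promoter windows from RefSeq (build GRCm38.p6) matched 9 of the 10 genes, all but Klrd1. TGTGGT, searched on both strands, was present in 6 of the 9 genes, against 15.9% of all 27025 genes with such a window and 14.0% of all 32851 windows. The sequences run 5′ to 3′ towards the start of the gene, and capitals mark TGTGGT or, where it lies on the other strand, ACCACA.
Gzmb: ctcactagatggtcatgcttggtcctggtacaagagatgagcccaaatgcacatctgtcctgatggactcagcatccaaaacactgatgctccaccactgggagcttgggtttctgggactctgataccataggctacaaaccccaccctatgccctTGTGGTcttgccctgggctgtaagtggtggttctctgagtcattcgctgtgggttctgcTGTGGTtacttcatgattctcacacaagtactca
Gzma: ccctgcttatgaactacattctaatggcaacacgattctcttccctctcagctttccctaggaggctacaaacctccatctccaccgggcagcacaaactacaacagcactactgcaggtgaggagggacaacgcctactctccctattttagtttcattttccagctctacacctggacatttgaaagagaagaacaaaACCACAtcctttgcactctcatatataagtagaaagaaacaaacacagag
Prf1: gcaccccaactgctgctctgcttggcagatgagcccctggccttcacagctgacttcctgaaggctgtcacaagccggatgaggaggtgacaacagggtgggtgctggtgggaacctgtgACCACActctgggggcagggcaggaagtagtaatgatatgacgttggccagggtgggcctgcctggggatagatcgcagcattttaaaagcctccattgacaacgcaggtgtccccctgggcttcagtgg
Nkg7: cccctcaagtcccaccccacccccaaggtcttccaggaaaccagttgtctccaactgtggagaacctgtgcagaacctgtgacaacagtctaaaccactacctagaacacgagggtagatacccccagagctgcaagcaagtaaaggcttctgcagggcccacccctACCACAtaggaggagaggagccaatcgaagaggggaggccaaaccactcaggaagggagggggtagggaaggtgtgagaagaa
Klrk1: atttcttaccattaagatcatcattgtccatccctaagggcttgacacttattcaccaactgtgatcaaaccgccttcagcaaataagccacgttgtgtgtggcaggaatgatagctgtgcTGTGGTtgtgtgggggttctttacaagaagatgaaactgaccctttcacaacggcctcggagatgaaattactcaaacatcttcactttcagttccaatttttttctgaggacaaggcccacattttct
Ncr1: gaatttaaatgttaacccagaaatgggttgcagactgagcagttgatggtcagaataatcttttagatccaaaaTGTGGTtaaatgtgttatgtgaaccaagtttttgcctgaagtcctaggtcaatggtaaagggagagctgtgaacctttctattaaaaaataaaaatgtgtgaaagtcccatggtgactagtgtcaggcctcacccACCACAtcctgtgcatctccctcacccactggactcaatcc
Gzmb (chr14:56262335-56262584, minus strand) held the letters at -93 to -88 and at -34 to -29, counted from the transcription start, and Ncr1 (chr7:4337465-4337714, plus strand) at -176 to -171 and -41 to -36. The single matches were at -50 to -45 in Gzma (chr13:113100982-113101231, minus strand), -130 to -125 in Prf1 (chr10:61297586-61297835, plus strand), -83 to -78 in Nkg7 (chr7:43436888-43437137, plus strand) and -129 to -124 in Klrk1 (chr6:129623865-129624114, minus strand). The full T-box site AGGTGTGA was found in Nkg7 alone of the 9, at -14 to -7, against 1.12% of all windows. Its core GGTGTG, which lies inside the full site, was also found in Gzmk (16.3% of all windows). The ETS letters CCGGAA, of the family of Etv1, were found in Gzmk (12% of windows), the STAT letters TTCNNNGAA in Nkg7 (7.02%), and the interferon-stimulated response element that IRF factors bind in Gzma and Eomes (2.98%). Tbx21 held none of these. A match describes letters in this window and is not evidence of binding.

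**Figure D1:**
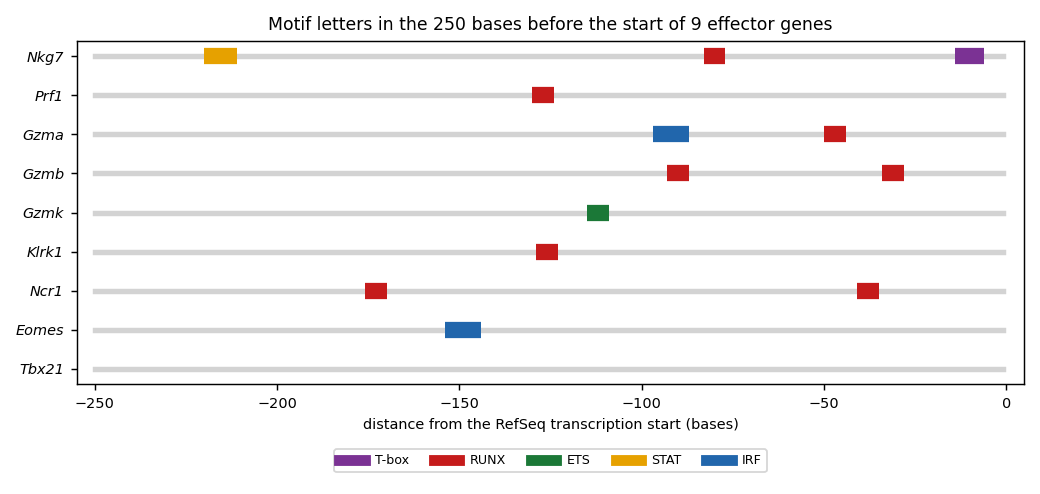
Positions of motif letters in the 250 bases before the RefSeq transcription start of 9 effector genes. The horizontal axis is the distance from the start in bases, each grey line is 1 promoter, and each coloured block is 1 match on either strand. RUNX letters (red) are present in 6 of the 9 promoters, with 2 matches each in Gzmb and Ncr1; the T-box core of Gzmk is not drawn.

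Of the 10 genes, 6 fell past the threshold (limma adjusted p under 0.05 over 15023 tested genes): Nkg7, Prf1, Gzmb, Klrk1, Ncr1 and Eomes. Gzma, Gzmk, Klrd1 and Tbx21 did not pass. Across all tested genes 5.45% were called in either direction and 3.07% were called lower. In 7 of the 10, the 6 and Tbx21, every tamoxifen tumor was below every vehicle tumor, a separation seen in 7.74% of tested genes. All 10 log2 fold changes were negative, with a median of -0.91, against 0.01 over all tested genes. The 10 genes were chosen with earlier results of these data known, so these counts are a description.

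**Figure D2:**
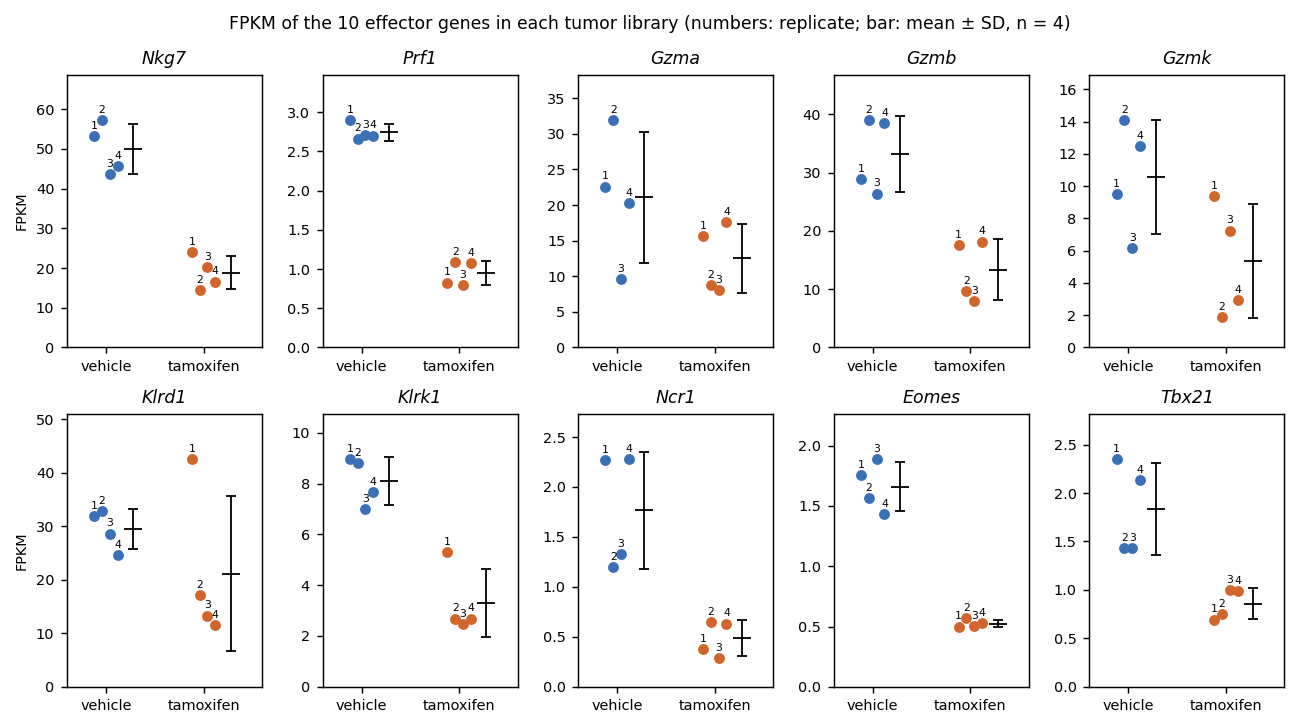
FPKM of the 10 effector genes (vertical axes, each from 0) in the 4 vehicle and 4 tamoxifen tumor libraries. Points are libraries with their replicate numbers, and bars are the mean ± SD. The groups are apart in 7 panels and overlap in Gzma, Gzmk and Klrd1, where tamoxifen replicate 1 reaches 42.5 FPKM.

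Nkg7, a membrane protein of cytotoxic granules, was the most abundant of the 10 in vehicle tumors (chromosome 7, 50692443 to 50693616 in mm9). It measured 53.1, 57.3, 43.6 and 45.7 FPKM in vehicle replicates 1 to 4 and 24.0, 14.5, 20.2 and 16.6 in tamoxifen replicates 1 to 4. The highest tamoxifen value was well under the lowest vehicle value. The means were 49.9 ± 6.36 and 18.8 ± 4.18 FPKM (SD, n = 4 each), so Nkg7 fell 2.65-fold (log2 fold change of FPKM + 1 -1.38, SE 0.17, limma adjusted p = 0.0074).

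Prf1 encodes perforin, the pore-forming protein without which granzymes do not reach the target's interior (chromosome 10, 60760584 to 60767011). Its level was low and even: 2.90, 2.67, 2.71 and 2.70 FPKM in the vehicle tumors and 0.828, 1.09, 0.799 and 1.07 in the tamoxifen tumors. Replicates of a group differed little beside the gap between the groups. The mean fell 2.90-fold, with group means of 2.75 ± 0.106 and 0.947 ± 0.154 FPKM (log2 fold change -0.95, SE 0.13, limma adjusted p = 0.00952). Nkg7 and Prf1 were the only effector genes of the 10 whose calls held without any 1 library (adjusted p up to 0.0292 and 0.033).

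Of the 3 granzymes, Gzmb passed the threshold and Gzma and Gzmk did not. Gzmb, which cuts after aspartate and activates caspases, lies on chromosome 14 (56877693 to 56881097). It measured 28.9, 39.0, 26.4 and 38.5 FPKM in vehicle tumors and 17.5, 9.72, 7.91 and 18.2 in tamoxifen tumors. The groups were apart, and the tamoxifen tumors themselves were split, with replicates 1 and 4 above replicates 2 and 3. Gzmb fell, with means of 33.2 ± 6.50 and 13.3 ± 5.27 FPKM (log2 fold change -1.31, SE 0.28, limma adjusted p = 0.0341). This call was lost without any 1 of the vehicle libraries (0.0699, 0.0955, 0.0684 and 0.101 without replicates 1 to 4) and without tamoxifen replicates 2 (0.0858) and 3 (0.0505).

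Gzma, a trypsin-like granzyme (chromosome 13, 113884033 to 113891187), measured 22.6, 31.9, 9.58 and 20.3 FPKM in vehicle tumors and 15.7, 8.74, 8.11 and 17.6 in tamoxifen tumors. Vehicle replicate 3 was near the lower tamoxifen tumors, and the groups overlapped (21.1 ± 9.19 against 12.5 ± 4.82 FPKM, log2 fold change -0.67, SE 0.37, limma adjusted p = 0.334). Gzmk, a trypsin-like granzyme found in memory CD8 T cells, measured 9.53, 14.1, 6.15 and 12.5 FPKM in vehicle tumors and 9.39, 1.86, 7.25 and 2.93 in tamoxifen tumors. Tamoxifen replicates 1 and 3 lay inside the vehicle range and replicates 2 and 4 below it (log2 fold change -0.997, SE 0.43, limma adjusted p = 0.217). The deposited locus of Gzmk (chromosome 13, 113961816 to 114016116) is shared with that of the endothelial gene Esm1, at 5.01 FPKM on average, so the value of Gzmk is uncertain. Gzma and Gzmk did not pass in any alternative tried.

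Klrk1 pairs with the adaptor Hcst and recognises stress-induced ligands (chromosome 6, 129560341 to 129573882). It measured 8.96, 8.82, 7.0 and 7.67 FPKM in vehicle tumors and 5.29, 2.68, 2.48 and 2.68 in tamoxifen tumors. Tamoxifen replicate 1 stood above its group, still under every vehicle tumor. Its mean fell 2.47-fold, with group means of 8.11 ± 0.937 and 3.28 ± 1.34 FPKM (log2 fold change -1.13, SE 0.20, limma adjusted p = 0.0206). The call was lost without vehicle replicates 1 to 4 (0.0583, 0.0658, 0.0538 and 0.0645) and tamoxifen replicate 2 (0.0616), and had a smaller p without tamoxifen replicate 1 (0.0106). Hcst, named after its values were seen, was lower in every tamoxifen tumor (24.7 ± 5.94 against 16.5 ± 1.77 FPKM) without passing (limma adjusted p = 0.118).

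Klrd1 lies beside Klrk1 on chromosome 6 (129541800 to 129548793) and encodes CD94. It measured 31.9, 32.8, 28.6 and 24.7 FPKM in vehicle tumors and 42.5, 17.1, 13.3 and 11.5 in tamoxifen tumors. Tamoxifen replicate 1 was the highest of all 8 libraries, while the other tamoxifen tumors were below every vehicle tumor. With all libraries Klrd1 did not pass (29.5 ± 3.69 against 21.1 ± 14.5 FPKM, log2 fold change -0.65, SE 0.36, limma adjusted p = 0.329). Without tamoxifen replicate 1 it passed, with a log2 fold change of -1.04 (limma adjusted p = 0.0254). Klrc1 and Klrc2, chains of the NKG2 family that pair with Klrd1, were looked at after this was seen. Klrc1 measured 3.27, 3.72, 3.03 and 2.40 FPKM in vehicle tumors and 3.89, 1.64, 1.02 and 1.12 in tamoxifen tumors, and Klrc2 reached 1.94 in tamoxifen replicate 1 against 0.366 to 0.964 in the other tamoxifen tumors. Both were therefore also highest in tamoxifen replicate 1, while the ratio of Klrd1 to Klrc1 was 8.82 to 10.3 in vehicle and 10.2 to 13.0 in tamoxifen tumors. The ratio of Klrd1 to Klrc2 was more variable, at 15.7 to 29.6 and 17.7 to 32.5. Reads from these similar lectin genes could be split between them, so single values are uncertain.

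Ncr1, a receptor of NK cells and some innate lymphoid cells, lies on chromosome 7 (4289326 to 4296766). It measured 2.27, 1.2, 1.33 and 2.28 FPKM in vehicle tumors and 0.378, 0.646, 0.290 and 0.632 in tamoxifen tumors. Ncr1 had the widest fold between means of the 10, 3.63-fold, at the lowest tamoxifen level (1.77 ± 0.585 to 0.486 ± 0.180 FPKM, log2 fold change -0.88, SE 0.20). The fall was close to the threshold (limma adjusted p = 0.0438). It was lost without any 1 of 7 libraries: vehicle replicates 1 to 4 (0.0985, 0.0595, 0.0754 and 0.0882) and tamoxifen replicates 1 to 3 (0.0796, 0.0661 and 0.0614).

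The 2 T-box factors were both under 1 FPKM on average after tamoxifen. Eomes (chromosome 9, 118387330 to 118395250) measured 1.76, 1.56, 1.89 and 1.43 FPKM in vehicle tumors and 0.500, 0.568, 0.500 and 0.529 in tamoxifen tumors, the tightest tamoxifen group of the 10. It fell 3.17-fold (1.66 ± 0.202 to 0.524 ± 0.0319 FPKM, log2 fold change -0.80, SE 0.14, limma adjusted p = 0.0186), a call lost without vehicle replicate 3 (0.0593). Tbx21 (chromosome 11, 96959385 to 96976645) measured 2.35, 1.43, 1.43 and 2.13 FPKM in vehicle tumors and 0.694, 0.747, 1.00 and 0.985 in tamoxifen tumors. The groups did not overlap, yet Tbx21 did not pass (log2 fold change -0.60, SE 0.17, limma adjusted p = 0.0791) in any alternative tried. Adding 1 FPKM before the log shrinks the change of such low genes: with a pseudocount of 0.1 the log2 fold changes were -1.49 for Eomes, -1.67 for Ncr1, -1.45 for Prf1 and -0.999 for Tbx21. These 4 genes reached the tested mean of 1 FPKM only through the vehicle tumors. In a fit without that filter Prf1, Ncr1 and Eomes also passed (limma adjusted p = 0.0157, 0.0454 and 0.0138). That fit uses the same values and gave the same log2 fold changes with smaller SEs (0.11, 0.17 and 0.086). It is therefore no separate support for these calls.

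**Figure D3:**
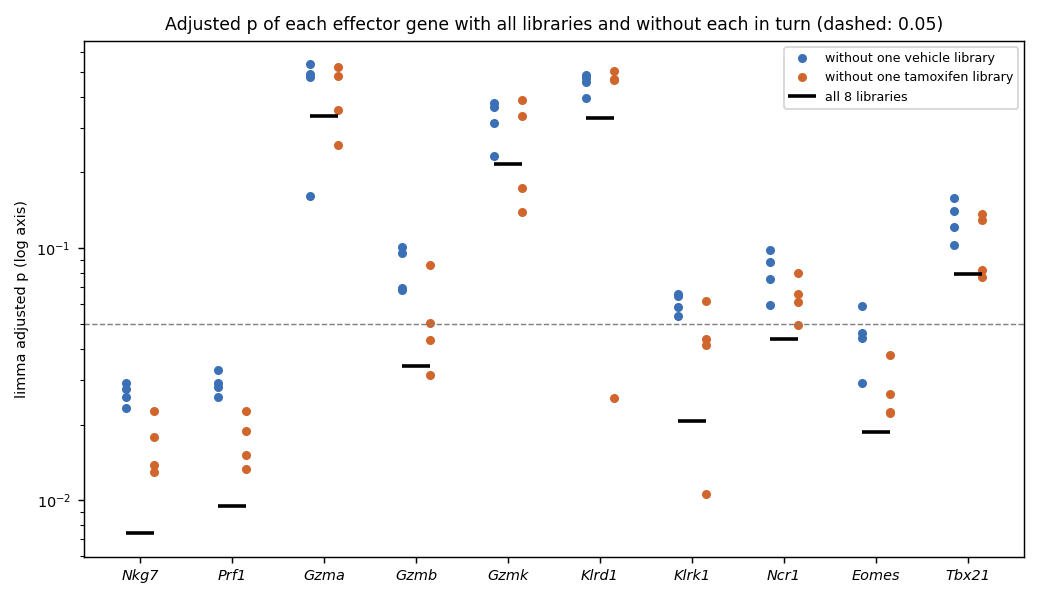
Limma adjusted p (vertical log axis) of each effector gene with all 8 libraries (black bars) and without each library in turn (blue, a vehicle library left out; orange, a tamoxifen library left out); the dashed line is 0.05. All points of Nkg7 and Prf1 are under the line, and the single low point of Klrd1, at 0.0254, is the fit without tamoxifen replicate 1.

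The interval the authors' table gives beside each FPKM is wide. For Nkg7, intervals of a vehicle and a tamoxifen tumor were apart in 1 of 16 pairs, for Gzmb in 6, and for Prf1, Klrk1, Ncr1 and Eomes in 0. The limma test uses the spread between replicates and not these intervals. Scaling all libraries to the same total FPKM left 1 of the 6 calls, Nkg7 (limma adjusted p = 0.0457). In that total, the 2 short immunoglobulin segments Ighj1 and Ighj4 alone held 5.42% to 54.6%. With them left out of it, an alternative chosen after seeing the data, all 6 calls held. A fit with the replicate number as a block kept the calls of Nkg7 and Klrk1 alone. The sample identifiers fall in 2 ranges of unstated meaning, a lower (3 vehicle and 2 tamoxifen libraries) and a higher (1 and 2). All 10 genes had a negative change within both, but the share of all tested genes that did was not computed. In the higher range every sign rests on the 1 vehicle library. In the lower range the groups overlapped for Gzma, Gzmk and Klrd1. The change of Nkg7 was -1.40 and -1.27 within the ranges and that of Klrd1 -0.19 and -0.94.

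In vehicle tumors the order of mean levels was Nkg7 (49.9 FPKM), Gzmb (33.2), Klrd1 (29.5), Gzma (21.1), Gzmk (10.6), Klrk1 (8.11), Prf1 (2.75), Tbx21 (1.84), Ncr1 (1.77) and Eomes (1.66). Neighbours in this order overlapped between libraries, except at the steps from Nkg7 to Gzmb, from Klrk1 to Prf1 and from Prf1 to Tbx21. After tamoxifen Klrd1 had the highest mean, at 21.1 FPKM, followed by Nkg7 at 18.8. This order turned on tamoxifen replicate 1, with Klrd1 at 42.5 and Nkg7 at 24.0 FPKM. Klrd1 was above Nkg7 in replicate 2 (17.1 against 14.5). It was below Nkg7 in replicates 3 (13.3 against 20.2) and 4 (11.5 against 16.6). All 45 pairs of the 10 genes were compared by their ratio in each tumor, to ask whether 1 gene changed more than another. The ratio was apart between groups in 3 pairs. Gzma relative to Gzmb was 0.363 to 0.819 in vehicle and 0.893 to 1.02 in tamoxifen tumors, and Klrd1 relative to Klrk1 was 3.22 to 4.09 and 4.28 to 8.04. Klrd1 relative to Eomes was 15.2 to 21.0 and 21.7 to 85.1. Each reached the smallest exact permutation p of 70 arrangements, 0.0286 (2-sided), which is the share of arrangements with the groups apart. None passed after adjustment over the 45 pairs (adjusted p = 0.429). With this smallest p, the adjustment can pass a pair only where many of the 45 are apart, so it decides little here.

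All 12 genes of a T cell identity list had a negative change, as did 7423 of all 15023 tested genes. Of the 12, 7 fell and 5 did not pass, where 3.07% of all tested genes were called lower. The 7 included Cd3e, a CD3 chain of T cells (19.5 ± 2.94 to 8.38 ± 0.475 FPKM, limma adjusted p = 0.00653). Cd8a, a chain of the coreceptor of cytotoxic T cells, fell from 19.99 ± 3.38 to 7.45 ± 2.70 FPKM (limma adjusted p = 0.0161), a call lost without vehicle replicates 2 and 4 (0.0544 and 0.0582). Cd3e and Cd8a were named after their values were seen, and both are among the 7 that fell. Ratios to the other genes of the list were not taken. Relative to Cd8a, none of the 10 effector genes was apart between the groups. Nkg7 measured 2.81, 2.33, 2.64 and 2.29 times the FPKM of Cd8a in vehicle tumors and 2.15, 2.83, 2.62 and 2.85 times in tamoxifen tumors, so its ratio ran over the same values in both groups. The ratio of Klrk1 to Cd8a was 0.410 ± 0.0504 and 0.445 ± 0.0872. Klrd1 relative to Cd8a was 1.5 ± 0.25 and 2.71 ± 1.02 (exact permutation p = 0.0571, n = 4 each), and Gzma 1.02 ± 0.318 and 1.80 ± 0.865 (exact permutation p = 0.114). Relative to Cd3e, Eomes alone was apart, at 0.0688 to 0.111 in vehicle and 0.0592 to 0.0665 in tamoxifen tumors (exact permutation p = 0.0286, the smallest possible). Of these 20 ratios none passed after adjustment (adjusted p = 0.571 for Eomes), which does not show that they were equal. This adjustment, too, can pass a ratio only where many of the 20 are apart.

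**Figure D4:**
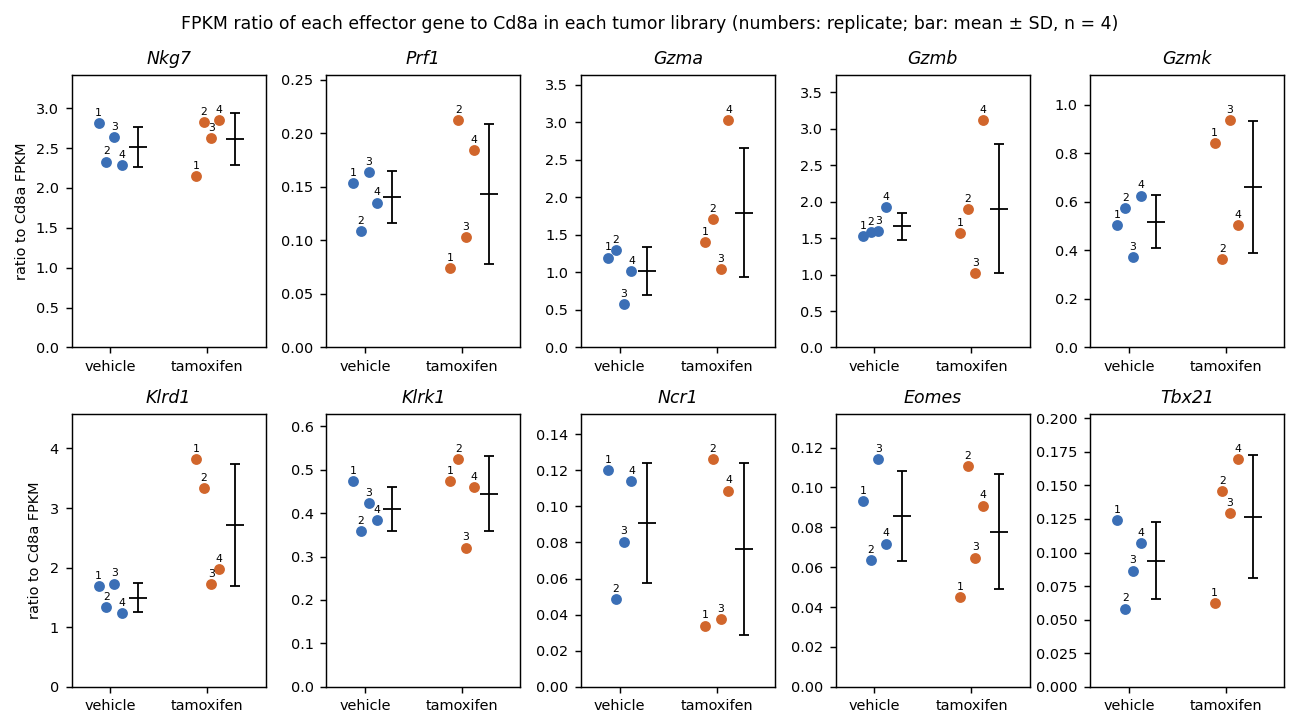
FPKM of each of the 10 effector genes divided by the FPKM of Cd8a in the same library (vertical axes, each from 0), with replicate numbers and mean ± SD bars. The groups overlap in all 10 panels, for example at 2.29 to 2.81 in vehicle and 2.15 to 2.85 in tamoxifen tumors for Nkg7.

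Other cells can express some of these genes, and their markers were read in the same tumors. Mast cells, which can express Gzmb, were barely seen: 8 of 10 mast cell markers averaged under 1 FPKM. The sum of the 10 was 3.36 to 7.5 FPKM in vehicle and 3.79 to 11.7 in tamoxifen tumors. Of the 10, 2 were tested and 1 rose. Markers of type 3 innate lymphoid cells, some of which express Ncr1, summed to 26.0 to 35.4 and 21.6 to 45.2 FPKM (7 genes, 4 of them under 1 FPKM on average). Of 8 markers of plasmacytoid dendritic cells, which can also express Gzmb, 6 were tested and 1 fell. Their sum was 77.5 to 104 FPKM in vehicle and 53.3 to 70.3 in tamoxifen tumors. Ccr9 is in this list and also in the next, so neither sum singles out a cell type. Of 9 markers of intraepithelial and gamma-delta T cells, 4 had a row, 2 averaged under 1 FPKM and 2 were tested. Their sum was 13.1 to 22.7 FPKM in vehicle and 5.99 to 9.09 in tamoxifen tumors. The 1 that fell was the integrin gene Itgae (10.7 ± 2.41 to 3.86 ± 1.18 FPKM, limma adjusted p = 0.0184; named after its values were seen). The locus of Itgae overlaps that of Gsg2, so its value is uncertain. Of 7 neutrophil markers, 6 were tested and 4 rose, and their sum was 9.61 to 37.2 against 181 to 475 FPKM. Intestinal epithelium markers ran from 971 to 1774 and from 1679 to 3650 FPKM (10 genes, of which 1 rose). GIST markers ran from 1494 to 2214 and from 1080 to 1519 FPKM (7 genes, of which 1 rose and 1 fell). Macrophage markers ran from 641 to 960 and from 579 to 1270 FPKM (8 genes, none called). B cell markers ran from 9.25 to 119 and from 14.9 to 38.6 FPKM (7 genes, none called). The part of these shifts in the falls of the effector genes was not tested.

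Of 13 genes for granule contents and processing, 7 were tested and 2 fell, with a median log2 fold change of -0.33 over the 7. Ctsw, a cathepsin of killer cells, measured 36.1 to 44.2 FPKM in vehicle and 13.0 to 18.9 in tamoxifen tumors (39.8 ± 4.14 to 16.5 ± 2.56 FPKM, log2 fold change -1.23, SE 0.14, limma adjusted p = 0.00653). Cst7, the inhibitor cystatin F that restrains granule cathepsins, fell from 8.91 ± 1.86 to 4.75 ± 0.401 FPKM (limma adjusted p = 0.0335). Gzmc, a neighbour of Gzmb on chromosome 14 named after its values were seen, measured 1.65 ± 0.610 and 0.799 ± 0.724 FPKM (limma adjusted p = 0.261). None of 12 genes of granule transport and fusion passed, and their median change was 0.01. The nearest were Coro1a, an actin regulator of leukocytes (136 ± 38.6 against 76.2 ± 27.5 FPKM, limma adjusted p = 0.126), and Sytl1, a Rab27 effector (2.32 ± 0.414 against 1.6 ± 0.5 FPKM, limma adjusted p = 0.282). Genes of this list are also active in cells other than lymphocytes.

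Among death ligands and effector cytokines, 1 of 8 tested genes of 10 fell (median -0.70). Xcl1, a chemokine that NK and CD8 T cells release to attract dendritic cells, measured 33.8, 11.8, 13.1 and 23.2 FPKM in vehicle and 7.09, 3.00, 4.02 and 5.74 in tamoxifen tumors. It fell 4.13-fold (log2 fold change -1.78, SE 0.35, limma adjusted p = 0.0286). Fasl, the ligand of the death receptor Fas, measured 5.51, 6.84, 4.56 and 4.46 FPKM in vehicle and 4.50, 1.90, 2.63 and 1.75 in tamoxifen tumors, with tamoxifen replicate 1 again inside the vehicle range (limma adjusted p = 0.0841, and 0.0312 without that library; named after its values were seen).

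Of 27 killer cell receptor genes, 13 were tested and 3 fell (median -0.58). Klre1, a lectin receptor of NK cells, was 1.92 to 2.56 FPKM in vehicle and 0.316 to 0.905 in tamoxifen tumors (4.48-fold lower mean, log2 fold change -1.11, limma adjusted p = 0.0146). It reached the tested mean of 1 FPKM only through the vehicle tumors. Klra7, of the Ly49 receptors for MHC class I, fell from 3.35 ± 0.889 to 1.08 ± 0.189 FPKM (limma adjusted p = 0.0178), and its value is uncertain among such similar genes and because its locus overlaps a U6 gene. Cd96, an adhesion receptor of T and NK cells, fell from 3.96 ± 0.523 to 2.39 ± 0.172 FPKM (limma adjusted p = 0.0454). Klrb1c, which encodes the NK1.1 antigen and was named after its values were seen, measured 2.72, 2.78, 3.17 and 4.06 FPKM in vehicle and 2.74, 2.50, 3.16 and 2.05 in tamoxifen tumors, with the groups overlapping (limma adjusted p = 0.474). Of 10 receptor adaptors and proximal signalling genes, 9 were tested, with a median of -0.34, and 1 fell: Sh2d2a, a T cell adaptor (4.52 ± 0.204 to 2.42 ± 0.265 FPKM, limma adjusted p = 0.0156). Cd247, the zeta chain of the T cell receptor and of several NK receptors, measured 12.1 ± 1.42 and 11.4 ± 0.815 FPKM (limma adjusted p = 0.76; named after its values were seen). Its deposited locus overlaps those of Pou2f1 and of the small RNA genes 5S_rRNA and U6, so its value is uncertain. Levels of such small RNA genes were summed over all rows of a name, so their expression at this locus is unknown.

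Of 15 transcription factors of the cytotoxic lineage, 13 were tested (median -0.28), 10 did not pass, 2 fell and 1 rose, where 2.38% of all tested genes were called higher. Hopx, a homeodomain protein of effector T cells, measured 29.1 to 44.5 FPKM without tamoxifen and 9.75 to 15.8 with it (log2 fold change -1.46, SE 0.20, limma adjusted p = 0.0103). Ikzf3, the lymphoid factor Aiolos, fell from 9.43 ± 3.17 to 4.56 ± 0.412 FPKM (limma adjusted p = 0.0416). The loci of Hopx and Ikzf3 overlap those of the small RNA genes snoU13 and U2, so these values are uncertain. Nfil3, a factor needed for NK cell development and also induced in other cells, measured 2.45, 1.95, 1.36 and 2.17 FPKM in vehicle and 4.21, 7.21, 6.11 and 4.75 in tamoxifen tumors. It rose 2.81-fold, against the direction of all 10 effector genes (log2 fold change 1.13, SE 0.19, limma adjusted p = 0.0163; 0.053 without vehicle replicate 2). Runx3, named after its values were seen, was 7.37 to 8.61 FPKM in vehicle and 2.72 to 5.86 in tamoxifen tumors (limma adjusted p = 0.0856).

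Of 16 genes for the cytokines that arm killer cells and for their receptors, 12 were tested and 3 fell, all receptor chains (median -0.34). Il12rb1, a chain of the interleukin-12 receptor, measured 9.29, 8.30, 8.28 and 11.1 FPKM in vehicle and 1.72, 2.65, 3.8 and 3.19 in tamoxifen tumors (3.25-fold lower mean, log2 fold change -1.44, SE 0.19, limma adjusted p = 0.00882). Il2rb, the shared chain of the receptors for interleukin-2 and interleukin-15, fell from 18.4 ± 0.765 to 8.35 ± 1.68 FPKM (limma adjusted p = 0.00969). Il21r, the interleukin-21 receptor, fell from 9.09 ± 1.97 to 4.65 ± 1.16 FPKM (limma adjusted p = 0.0488). Il15, the cytokine that sustains NK cells, measured 13.4 ± 2.20 and 11.1 ± 4.26 FPKM (limma adjusted p = 0.479; named after its values were seen).

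Of 16 genes for ligands and death machinery of target cells, 8 were tested and 2 fell, with a median of 0.10. H2-T23 encodes Qa-1, the class I molecule that the Klrd1 receptors bind, and fell, with means of 354 ± 21.8 and 165 ± 28.2 FPKM (log2 fold change -1.11, SE 0.14, limma adjusted p = 0.0074). Its deposited locus overlaps other class I genes, among them H2-T22, so the value is uncertain. Ulbp1, a ligand of the Klrk1 receptor, fell from 1.57 ± 0.232 to 0.590 ± 0.0612 FPKM (limma adjusted p = 0.0338), and it too reached the tested mean only through the vehicle tumors. Of the 15 genes named as changed from these 8 lists, 8 kept their call without any 1 library and 5 with scaling to the same total FPKM. The calls of Cd96 and Il21r were lost whichever of the 8 libraries was left out (limma adjusted p of 0.11 and 0.13 at the highest). Those of Cst7, Xcl1, Ikzf3 and Ulbp1 were lost when 1 of 4 to 7 libraries was left out; the highest adjusted p came without vehicle replicate 4 (0.099 and 0.0931), tamoxifen replicate 1 (0.0951) and vehicle replicate 3 (0.0815).

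**Figure D5:**
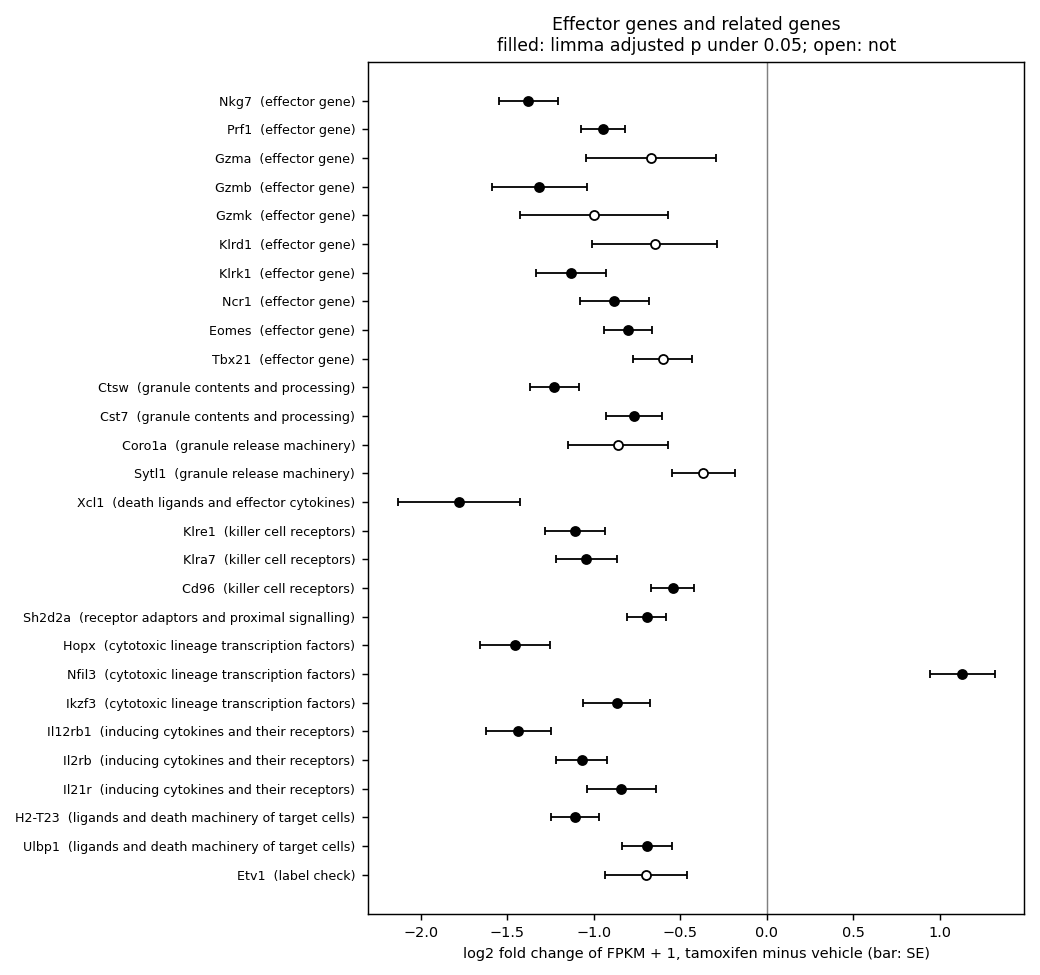
Log2 fold change of FPKM + 1 (horizontal axis, tamoxifen minus vehicle, with SE bars) of the 10 effector genes, of the genes taken from 8 lists of related genes, and of Etv1. Filled points passed a limma adjusted p of 0.05. All points are left of 0 except Nfil3, at 1.13.

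The 10 genes were also read as an average profile over the tumors, which they followed unequally. Averaged as mean-centred log2 values, the 10 genes stood at 0.56, 0.59, 0.21 and 0.51 in vehicle replicates 1 to 4. The average was -0.12, -0.68, -0.60 and -0.48 in tamoxifen replicates 1 to 4. In this average tamoxifen replicate 1 was nearest to the vehicle tumors. Single genes differed: it was the highest tamoxifen tumor in 4 of the 10 and the lowest in Tbx21. In Eomes it was level with tamoxifen replicate 3 at 0.500 FPKM, the low end of that group. Klrk1 was closest to this average (root mean square distance 0.16 on the log2 scale) and Gzmk farthest (0.49). Gzma and Klrd1 were also far from it (0.42 and 0.43), although each gene is itself part of the average. Among 11645 other genes with a mean of at least 2 FPKM, the 5 nearest profiles were those of Hist1h2bc, a histone gene (distance 0.11), Cd160, a receptor of NK and CD8 T cells (0.14), Apol7e, an apolipoprotein L (0.14), Nlrc5, the activator of MHC class I genes (0.15), and Sp100, a nuclear body protein (0.15). Cd160 measured 6.37 ± 1.42 in vehicle and 2.89 ± 1.22 FPKM in tamoxifen tumors, and Nlrc5 69.9 ± 8.99 and 35.1 ± 3.75 FPKM. All 5 of these other genes lay nearer to the average than any of the 10 effector genes did. They were picked as the nearest of 11645 and the 10 were not picked by distance, so this follows largely from the ranking. The likeness is a description over 8 libraries, and it includes the step between the groups. Cd160 is also one of the 27 killer cell receptor genes.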

How the data were processed

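RNA sequencing of 8 cecal tumors was used; the titles gave each sample's group and replicate number. The authors deposited gene-level FPKM for each library, with lower and upper bounds and an estimate status; the confidence level of the bounds is not stated. STAR 2.3, Cufflinks, Cuffdiff and mm9 are named per the submitters' processing notes; roles, annotation, strandedness and scaling between libraries: not given in the sources used here. Status entries (other, text) come from the authors' table: 178 failed values were set to missing, rows were summed per symbol, and 0 columns of per-sample values were left unmapped.

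Genes with a mean of at least 1 FPKM and at least 2 estimates per group were tested on log2(FPKM + 1) with limma 3.58.1 in R 4.3.3 (mean-variance trend, 2-sided), with Benjamini-Hochberg adjustment over 15023 genes and a threshold of 0.05. A log2 fold change on this scale understates the change of low genes. The procedure was tested on simulated data. Ratios of 2 genes in a library were compared by an exact 2-sided permutation test over 70 arrangements, a comparison added after the data were seen. Loci are those of the table, with starts counted from 1. Promoters are from RefSeq, GRCm38.p6, and were searched over 250 bases before the start.

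The members and lists were chosen with earlier results of these data known. Named were all 10 members, Etv1, and from each of 8 lists up to 4 genes past the threshold with the smallest p, or otherwise up to 2; other genes are marked where named. Genes of like profile were ranked by root mean square distance. Alternatives were other pseudocounts, filters, scalings and limma settings, a covariate for the range of the sample identifiers, a replicate block, and leaving out each library. The scaling and leave-one-out fits kept the genes tested with all libraries, instead of filtering anew, a choice made after seeing that low members otherwise dropped out.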

Additional observations from a re-analysis of the deposited data

Results flagged for a closer look

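A library far from the other 3 of its group was found in 4 of the 56 groups of 4 examined (28 genes, each in vehicle and tamoxifen tumors), where chance gives about 1 in 20. A library was taken as distant when its gap to the nearest other value, as a share of the group's range, passed Dixon's 95% critical value. Klrk1 was highest in tamoxifen replicate 1, at 5.29 FPKM, with a gap of 0.927 of the range. Klre1 was also highest in tamoxifen replicate 1, at 0.905 FPKM (gap 0.887). H2-T23 was highest in tamoxifen replicate 3, at 207 FPKM (gap 0.864), and Cst7 lowest in vehicle replicate 3, at 6.16 FPKM (gap 0.835).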

How the results depend on the processing

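The count of all genes called, 819, fell to 534 with a mean of at least 5 FPKM, to 228 with scaling to the same total FPKM and to 252 with a replicate block, and ran from 260 to 814 when 1 library was left out. The count of effector genes called, 6, was 3 with a mean of at least 5 FPKM (6 of the 10 tested), 1 with scaling to the same total, 2 with the replicate block (Nkg7 and Klrk1), and 2 to 6 when 1 library was left out. In the other alternatives it was 5 or 6. Scaling to the same total split the calls into 153 higher and 75 lower, and the same total without Ighj1 and Ighj4, an alternative chosen after seeing the data, into 265 and 583, against 358 and 461. Same-numbered libraries did not deviate together (correlation across genes -0.16, -0.0021, 0.14 and 0.06 for replicates 1 to 4). This gave no sign that the numbers pair the samples, but weak correlations do not show that they were unpaired. No log2 fold change of a named gene changed sign in any alternative. Of 845 alternative values for single genes, 110 lost and 12 gained a call. Depth is unknown, so the precision of the genes near 1 FPKM rests on the replicates. The cause of these changes was not tested, beyond the smaller number of samples or genes in those fits that left some out.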

Other observations

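Ifng and Gzmm were named after their values were seen. Ifng, the signature cytokine of killer cells, was under the tested mean of 1 FPKM. It measured 1.32, 1.08, 0.552 and 1.17 FPKM in vehicle and 0.538, 0.206, 0.567 and 0.971 in tamoxifen tumors (exact permutation p = 0.0857, n = 4 each), with the groups overlapping. Gzmm, a granzyme of NK cells, measured 0.594 ± 0.141 and 0.433 ± 0.148 FPKM (exact permutation p = 0.171, n = 4 each). Of the granzyme genes beside Gzmb on chromosome 14, Gzmd, Gzmg and Gzmn were listed at 0 in all 8 libraries.

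The NK cell receptor genes Ncr1 and Klrb1c gave unlike values, a pair chosen after both were seen. Ncr1 relative to Klrb1c was 0.835, 0.431, 0.420 and 0.561 in vehicle and 0.138, 0.258, 0.0918 and 0.308 in tamoxifen tumors, so every tamoxifen tumor was below every vehicle tumor. The exact permutation p of 0.0286 (2-sided, n = 4 each) is the smallest that 70 arrangements allow, and it takes no account of the choice of the pair. Fasl, Klrd1, Klrc1 and Ccl5 each passed once tamoxifen replicate 1 was left out (limma adjusted p = 0.0312, 0.0254, 0.0428 and 0.0207), and none of them passed with all 8 in the design reported. Each had its highest tamoxifen value in that library, so leaving it out widens the gap between the groups. Fasl and Ccl5 also passed with all 8 under some other settings, among them the same total FPKM without Ighj1 and Ighj4 (0.0389 and 0.0177). Ccl5, like Fasl and Klrc1, was named after its values were seen.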
